A study of Mus musculus with 6 samples.

Results

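The 4 genes described here move glutamate in neurons. Slc17a7, Slc17a6 and Slc17a8 encode the vesicular glutamate transporters VGLUT1, VGLUT2 and VGLUT3, and Slc1a1 encodes the neuronal plasma membrane transporter EAAT3, also called EAAC1. They were taken by name, as the vesicular glutamate transporter family together with the main glutamate carrier of the neuronal surface. All 4 were found among the 55385 genes of the count tables, and all 4 were among the 18132 genes with enough reads to be tested.

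The study sequenced total RNA, depleted of ribosomal RNA, from primary cortical neurons of mouse embryos at embryonic day 18, grown for 16 days in vitro. Every culture, controls included, was exposed on day 2 to 2.5 uM AraC for 24 hours, a nucleoside analogue that stops dividing cells. The control group (3 libraries) received nothing else. The activated group (3 libraries) had KCl added for 5 minutes, was then rinsed in fresh medium and was collected 30 minutes later, the KCl being given as 50 mM in one label and 50 uM in another. Whether the replicates of a group came from different cultures or litters is not stated in the labels. The p-values therefore describe the spread of these libraries, which may be technical.

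Vesicular glutamate transporters fill synaptic vesicles with glutamate, driven by the proton gradient that the vacuolar ATPase sets up across the vesicle membrane. VGLUT1 is the main form of cortical pyramidal neurons, VGLUT2 that of thalamic and many other subcortical neurons and of young cortical neurons, and VGLUT3 is found in small populations such as some interneurons and serotonergic neurons. EAAT3 sits on neuronal cell bodies and dendrites and takes up glutamate and cysteine, which feeds glutathione synthesis and, in inhibitory neurons, GABA synthesis. Most synaptic glutamate is instead cleared by astrocytes and returned to neurons as glutamine.

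Own-strand gene reads ranged from 17752711 to 32919975 per library, the lowest being activated replicate 1. Reads outside annotated exons made up 25.1% to 29.6% of reads in control and 28.3% to 37.3% in activated libraries, the highest being activated replicate 2. The 12 rapid activity genes examined, among them Arc and Npas4, were all lower in the libraries labelled activated (median log2 fold change −1.33). Of all tested genes, 20.6% were lower (edgeR adjusted p below 0.05). The direction of the rapid activity genes goes against the label. Groups are therefore named by their labels, and every direction below rests on these. Neuronal marker lists were present at high levels, whereas defining genes of mature oligodendrocytes (Mog, Mag, Mobp), endothelium (Cldn5, Cdh5) and resting microglia (P2ry12, Tmem119) had too few reads to be tested. Most genes of the wider lists were tested and are described below. They were 6 of 10 for the oligodendrocyte lineage, 10 of 12 for endothelial, mural and fibroblast cells and 8 of 10 for microglia.

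Slc17a7 (ENSMUSG00000070570.5) lies on chromosome 7 from 45163949 to 45176142 on the plus strand, and Slc17a6 (ENSMUSG00000030500.6) on chromosome 7 from 51622006 to 51671119, also plus (GRCm38, GENCODE M21). Slc17a8 (ENSMUSG00000019935.16) lies on chromosome 10 from 89574020 to 89621253 on the minus strand, and Slc1a1 (ENSMUSG00000024935.11) on chromosome 19 from 28835049 to 28913960 on the plus strand. The sequence before the RefSeq start of each gene, cut short where a GENCODE exon begins earlier, is printed below because neuronal depolarisation is known to act through the CREB and AP-1 factors. The stretches come from RefSeq (GRCm38.p6), are written 5′ to 3′ on the gene's strand, and span chr7:45163671-45163920 for Slc17a7, chr19:28834885-28835048 for Slc1a1, chr7:51621580-51621829 for Slc17a6 and chr10:89621254-89621499 for Slc17a8. Capitals mark GC boxes, the letters GGGCGG on either strand.

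Slc17a7: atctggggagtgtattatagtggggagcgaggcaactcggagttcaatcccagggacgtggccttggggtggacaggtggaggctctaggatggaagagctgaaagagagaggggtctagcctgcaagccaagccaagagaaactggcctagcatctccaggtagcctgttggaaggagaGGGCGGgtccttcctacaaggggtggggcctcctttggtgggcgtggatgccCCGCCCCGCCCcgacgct
Slc1a1: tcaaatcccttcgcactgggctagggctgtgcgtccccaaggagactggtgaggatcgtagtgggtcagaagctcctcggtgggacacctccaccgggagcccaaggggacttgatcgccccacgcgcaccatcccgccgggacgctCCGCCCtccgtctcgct
Slc17a6: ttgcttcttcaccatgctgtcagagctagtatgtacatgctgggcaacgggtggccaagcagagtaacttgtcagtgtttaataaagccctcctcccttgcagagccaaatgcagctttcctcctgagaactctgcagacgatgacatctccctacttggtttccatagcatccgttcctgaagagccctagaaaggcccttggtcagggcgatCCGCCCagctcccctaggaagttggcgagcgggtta
Slc17a8: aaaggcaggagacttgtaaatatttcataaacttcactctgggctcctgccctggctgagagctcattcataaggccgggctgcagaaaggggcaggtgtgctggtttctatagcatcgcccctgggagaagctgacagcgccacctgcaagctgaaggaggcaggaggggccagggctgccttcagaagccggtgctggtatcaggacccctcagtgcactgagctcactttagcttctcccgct

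In the full 250 bases before the RefSeq start, which run on past the printed end for Slc1a1 and Slc17a8, the GC box was matched 3 times for Slc17a7, once for Slc1a1 and once for Slc17a6, and it was not matched for Slc17a8. Over 32851 RefSeq promoters, 32.7% held it in a window of that length. The CRE (TGACGTCA), its core (TGACG, which the full CRE contains) and the AP-1 site (TGANTCA), searched on both strands, were not found in any of the 4 windows. They occurred in 1.55%, 17.8% and 6.75% of all promoters, so that most windows of this length lack them. The base composition differed, with 70.4% G and C for Slc1a1, 61.2% for Slc17a7, 57.2% for Slc17a8 and 53.2% for Slc17a6, where the median of all promoters was 52.4%.

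The 4 genes spanned a wide range of abundance in a fixed order: Slc17a7, then Slc1a1, Slc17a6 and Slc17a8. Levels per length are given as TPM, which divides reads by the summed exon length of a gene and scales each library to the same total. Slc17a7 stood at 265, 285 and 271 TPM in control replicates 1, 2 and 3 and at 242, 243 and 298 TPM in activated replicates 1, 2 and 3. It lay above 99.0% of tested genes by mean TPM. Slc1a1 came next, at 53.4, 55.2 and 53.6 TPM in control and 45.8, 46.2 and 54.4 TPM in activated replicates. Slc17a6 stood at 23.6, 21.3 and 20.2 TPM in control and 17.9, 19.1 and 25.5 TPM in activated replicates. Slc17a8 was near the bottom of the tested genes, above 11.1% of them, at 1.22, 0.839 and 1.12 TPM in control and 0.736, 1.08 and 0.937 TPM in activated replicates. No neighbours in this order overlapped in either group. With the longest transcript as the length, the order was the same, but the mean over the 6 libraries was 411 in place of 267 TPM for Slc17a7 and 98.2 in place of 51.4 TPM for Slc1a1.

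**Figure D1:**
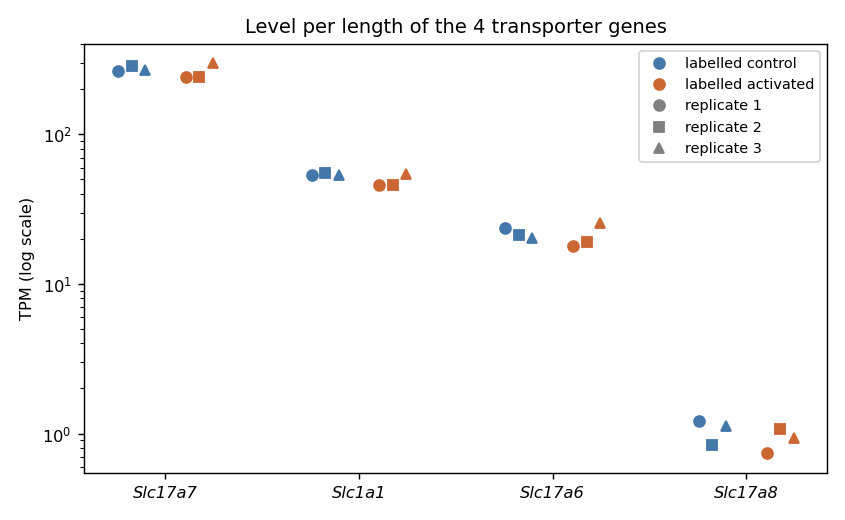
TPM on a log scale for the 4 genes, 1 point per library, with control libraries to the left of activated libraries for each gene and the marker shape giving the replicate. Slc17a7 lies between 242 and 298 TPM and Slc17a8 between 0.736 and 1.22 TPM, and no gene's points reach those of its neighbour.

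Slc17a7 therefore made up nearly all vesicular glutamate transporter mRNA. Its share of the summed TPM of the 3 vesicular genes lay between 91.4% and 92.9% over the 6 libraries, that of Slc17a6 between 6.86% and 8.14%, and that of Slc17a8 between 0.273% and 0.421%. For comparison, Slc32a1, the vesicular GABA transporter gene, had a mean of 255 TPM in control and 208 TPM in activated libraries. The depth behind these values differed widely: Slc17a7 had 8642 to 18535 reads per library, Slc1a1 2505 to 5176, Slc17a6 639 to 1589 and Slc17a8 only 23 to 57. Counting error alone was at most 1.08% of the Slc17a7 value but 13.2% to 20.9% of the Slc17a8 value.

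None of the 4 genes passed the test between the groups, where 36.8% of all tested genes did (edgeR quasi-likelihood test, adjusted p below 0.05). Values for this comparison are CPM, read counts relative to the library total, scaled by TMM, a factor that assumes most genes are alike between libraries. Slc17a7 stood at 464, 493 and 467 CPM in control replicates 1, 2 and 3 and at 514, 473 and 581 CPM in activated replicates 1, 2 and 3. Activated replicates 1 and 3 were above every control library, but activated replicate 2 lay among them. The log2 fold change was 0.14 ± 0.08 (SE, n = 3 each; edgeR adjusted p = 0.166). This corresponds to 10.1% more, with a 95% interval from −1.67% to 23.3%. Without activated replicate 2 the gene was called (0.21; edgeR adjusted p = 0.0324), and without activated replicate 3 the value was 0.053.

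Slc17a6 had 41.4, 37.0 and 34.9 CPM in control and 38.0, 37.2 and 49.8 CPM in activated replicates 1, 2 and 3. A single library, activated replicate 3, lay above the control range, and the other activated libraries lay inside it. The log2 fold change was 0.15 ± 0.10 (SE, n = 3 each; edgeR adjusted p = 0.265), or 11.0% more with a 95% interval from −4.75% to 29.4%. Without activated replicate 3 it was −0.0068. No other library left out turned its sign.

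Slc1a1 varied least among control libraries, at 143, 146 and 142 CPM, against 149, 138 and 162 CPM in activated replicates 1, 2 and 3. The activated libraries lay on either side of the controls. The log2 fold change was 0.06 ± 0.07 (SE, n = 3 each; edgeR adjusted p = 0.510), or 4.20% more, with a 95% interval from −5.70% to 15.1%. It was −0.0068 without activated replicate 3 and −0.010 with total counts in place of TMM.

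Slc17a8 had 1.87, 1.27 and 1.68 CPM in control and 1.37, 1.83 and 1.60 CPM in activated replicates 1, 2 and 3. The ranges of the groups nearly coincided. The fold was 0.999 (edgeR adjusted p = 0.998), with a 95% interval of the log2 fold change from −0.48 to 0.48, or from −28.4% to 39.5%. At this depth, changes anywhere within that interval are compatible with the values. The intervals for Slc17a6, Slc17a7 and Slc1a1 were narrower, at a fold of 0.953 to 1.29, 0.983 to 1.23 and 0.943 to 1.15.

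**Figure D2:**
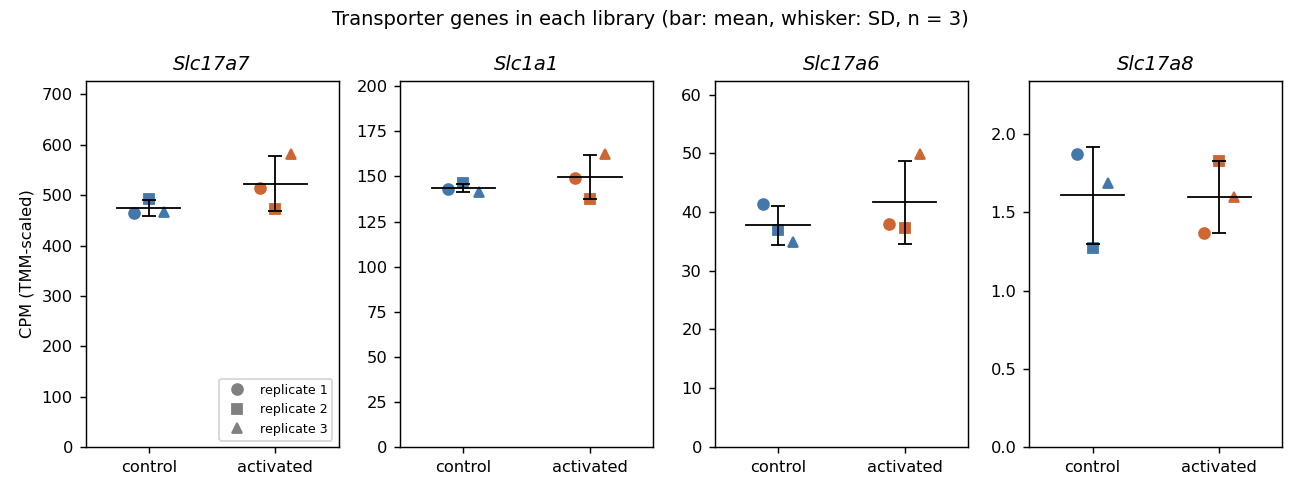
TMM-scaled CPM of each gene in each library, with points for replicates, horizontal bars for group means and whiskers for the SD (n = 3), each panel starting at 0 on its own scale. The groups overlap in every panel, and activated replicate 3 is the highest library for Slc17a7 (581 CPM), Slc1a1 (162 CPM) and Slc17a6 (49.8 CPM).

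The high values of activated replicate 3 were shared by the 3 more abundant genes. Activated replicate 2, whose share of reads outside exons was the highest at 37.3%, was the lowest activated library for each of them by CPM. By TPM the lowest was instead activated replicate 1, for example 242.1 against 243.0 TPM in activated replicate 2 for Slc17a7. The part of the reads outside exons in these values was not tested. Across the 6 libraries, the log2 CPM of Slc17a7 and Slc1a1 had a Pearson correlation of 0.95, that of Slc1a1 and Slc17a6 0.83 and that of Slc17a7 and Slc17a6 0.79, whereas Slc17a8 had −0.36 with Slc17a7 and with Slc1a1. These correlations are descriptions over 6 libraries that share their scaling factors. TPM means, which are not corrected for composition, were slightly lower in activated libraries for all 4 genes. For Slc1a1 they were 54.1 ± 0.984 against 48.8 ± 4.84 TPM (SD, n = 3), the opposite sign to the CPM of 143.7 ± 2.30 against 149.7 ± 12.4. With total counts, also not corrected for composition, the log2 fold changes of Slc17a7 (0.069) and Slc17a6 (0.083) stayed positive. Those of Slc1a1 (−0.010) and Slc17a8 (−0.065) were negative.

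The sign and size thus depended on what the libraries were scaled to. Scaled to the summed reads of 30 excitatory and inhibitory neuron marker genes, the median over all tested genes moved up by 0.14, to 0.19, on the log2 scale, and 28.7% of all genes were called higher. Under that scaling Slc17a6 (0.29), Slc17a7 (0.28) and Slc1a1 (0.20) were called higher (edgeR adjusted p = 0.0409, 0.0113 and 0.0421), and Slc17a8 (0.15) was not. Slc1a1 lay at the median of all genes there, and the other 2 calls about 0.1 above it. Many of these markers fell, with 8 of 14 excitatory markers lower and 1 higher (median −0.32) and 9 of 16 inhibitory markers lower and none higher (median −0.42), where 20.6% of all tested genes were lower. Summed over the list, excitatory markers had 1859 to 2004 CPM in control and 1901 to 2153 CPM in activated libraries, and inhibitory markers 2883 to 2988 and 2248 to 2506 CPM. The largest part of the excitatory sum was the 1 excitatory marker called higher. It had 1000 ± 67.6 CPM in control and 1282 ± 104 CPM in activated libraries (SD, n = 3), and also counts in the neuron marker scaling. The excitatory sum therefore does not show how the other excitatory markers moved. In bulk RNA, fewer cells of a type and less RNA per cell cannot be told apart.

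**Figure D3:**
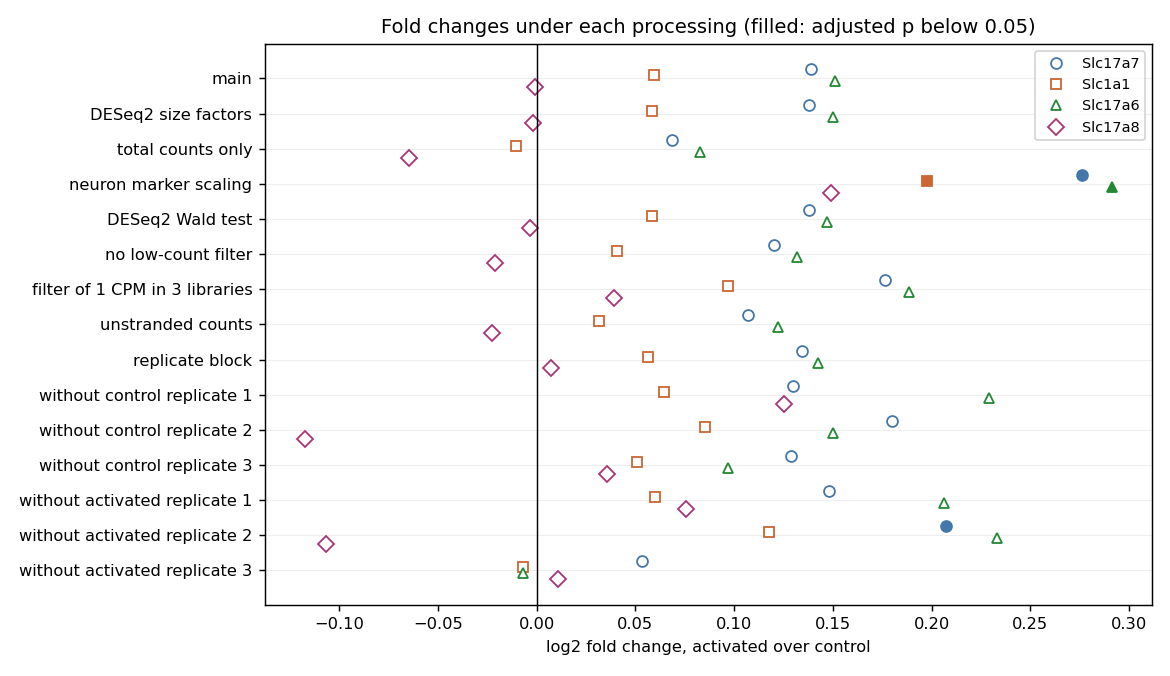
Log2 fold change of the 4 genes (horizontal axis, activated over control) under the main processing and each alternative (rows), with filled symbols where the adjusted p was below 0.05. Slc17a7, Slc1a1 and Slc17a6 are filled under the neuron marker scaling and Slc17a7 without activated replicate 2. Slc17a8 lies on either side of 0.

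Ratios of 2 genes within a library do not depend on the scaling, and 6 such pairs were formed from the 4 genes. The ratio of Slc17a7 to Slc1a1 per length was 4.96, 5.16 and 5.05 in control and 5.28, 5.26 and 5.48 in activated replicates 1, 2 and 3. These groups did not overlap, as 49.0% of all tested single genes did not by CPM. The difference in this ratio was small, 0.08 on the log2 scale. Its two-sided exact permutation p was 0.1, the smallest that 3 against 3 libraries allow (0.6 after adjustment over the 6 pairs). The ratio of Slc17a7 to Slc17a6 was 11.2, 13.4 and 13.4 in control and 13.5, 12.7 and 11.7 in activated replicates, with wholly overlapping groups (exact permutation p = 1). The other 4 pairs overlapped too, with exact permutation p-values from 0.5 to 1.

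Ratios were also formed to genes of inhibitory neurons and astrocytes. Chosen with earlier results of these data known, 4 ratios were computed to a gene outside the group, and in all 4 the groups did not overlap (exact permutation p = 0.1 each, also after adjustment over the 4, the smallest the design allows). By CPM, single genes did not overlap between the groups in 49.0% of all genes tested, and the same share for ratios is not given. Slc17a7 per Slc32a1 was 0.990, 1.15 and 1.09 in control and 1.20, 1.24 and 1.31 in activated replicates 1, 2 and 3. Slc17a6 per Slc32a1 was 0.0881, 0.0860 and 0.0812 in control and 0.0887, 0.0978 and 0.112 in activated replicates 1, 2 and 3. The group means of both ratios differed by 0.22 on the log2 scale, with all activated libraries above all controls. For Slc17a6 per Slc32a1 the separation was very small, with activated replicate 1 (0.0887) barely above control replicate 1 (0.0881). Slc1a1 per Slc1a3, the astrocyte transporter GLAST, was 0.802, 0.864 and 0.823 in control and 0.524, 0.541 and 0.539 in activated replicates. Slc1a1 per Slc1a2, the main astrocyte transporter GLT-1, had a log2 difference of −0.28. Slc1a3 and Slc1a2 were themselves called higher, by 0.69 and 0.35 on the log2 scale, and Slc1a1 did not pass (0.06).

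**Figure D4:**
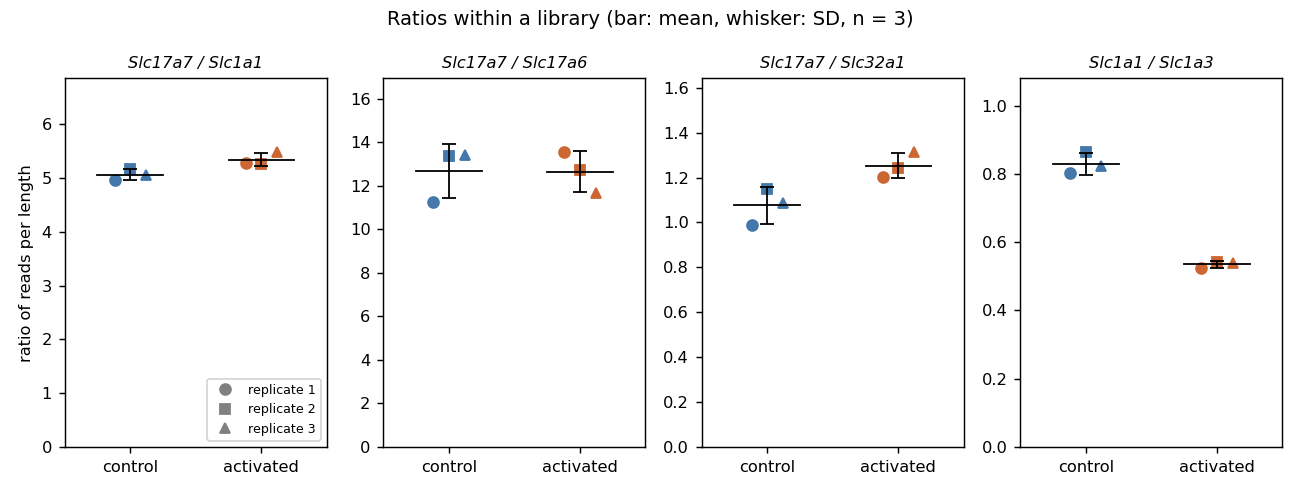
Ratios of reads per length of 2 genes within a library, with points for replicates, bars for group means and whiskers for the SD (n = 3), each panel starting at 0. Slc17a7 to Slc17a6 overlaps between the groups, whereas Slc1a1 to Slc1a3 is 0.802 to 0.864 in control and 0.524 to 0.541 in activated libraries.

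Of 12 listed enzymes that make glutamate, 3 fell, 1 rose and 8 did not pass (median log2 fold change 0.07, that of all genes 0.04), a share near the 36.8% of all tested genes that passed. With unstranded counts 2 were higher, and with the neuron marker scaling 3. The aspartate aminotransferase genes Got1 (122 ± 14.4 to 73.0 ± 7.06 CPM) and Got2 (204 ± 15.5 to 157 ± 9.81 CPM) fell by 0.74 and 0.38 on the log2 scale. Bcat1, the cytosolic branched-chain aminotransferase, fell by 0.51, and Aldh4a1, a mitochondrial enzyme of proline breakdown, rose by 0.50.

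Of the glutamine and mitochondrial carriers, 10 of 11 were tested, 3 fell, 3 rose and 4 did not pass (median 0.12), where 20.6% of all tested genes were lower and 16.2% higher. Without control replicate 3, or with total counts, 1 carrier was higher in place of 3. Slc25a11, the oxoglutarate carrier, and Slc25a12, an aspartate-glutamate carrier, fell by 0.57 and 0.50 on the log2 scale. Both are parts of the malate-aspartate shuttle, as are Got1 and Got2. Slc25a22, a mitochondrial glutamate carrier, went from 148 ± 4.50 to 112 ± 14.2 CPM (log2 fold change −0.40). The other mitochondrial carriers of the list, Slc25a13 (0.32) and Slc25a18 (0.36), had values of the opposite sign and did not pass. Slc38a6, a member of the glutamine transporter family, rose by 0.59 from 6.77 ± 1.22 CPM. The neuronal glutamine importers Slc38a1 (0.01) and Slc38a2 (−0.16) did not pass.

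The proton pump on which vesicular loading depends was lower in part. Of 18 listed genes, 11 fell, 1 rose and 6 did not pass, around a median of −0.38, where 20.6% of all tested genes were lower. Split by sector after the values were seen, all 9 genes of the cytosolic V1 sector, which hydrolyses ATP, fell, by 0.35 to 0.75 on the log2 scale and with no overlap between groups, as in 49.0% of all tested genes. Of 6 genes of the membrane V0 sector, 2 fell, 1 rose and 3 did not pass, and neither did the accessory genes Atp6ap1 and Atp6ap2 or the chloride transporter gene Clcn3. Atp6v1e1 stood at 160, 191 and 180 CPM in control and at 108, 98.2 and 109 CPM in activated replicates 1, 2 and 3, a decrease that passed (log2 fold change −0.75 ± 0.07, SE, n = 3 each; edgeR adjusted p = 1.71e-05). Atp6v1c1, Atp6v1d and Atp6v1g2 had log2 fold changes of −0.64, −0.62 and −0.58. Under the neuron marker scaling the 9 V1 genes were all still called lower (median −0.44), and 4 genes of the whole list were called higher. Atp6v0a1, the large V0 subunit, did not pass, at 530 ± 25.8 CPM in control and 538 ± 41.2 CPM in activated libraries (SD, n = 3).

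Genes for proteins that bind the transporters were 4 in number, of which 3 fell and 1 did not pass, where 20.6% of all tested genes were lower. The endophilin genes encode membrane-bending proteins of vesicle recycling that bind VGLUT1. Sh3gl2, the neuronal endophilin A1, went from 87.5 ± 3.74 to 55.2 ± 3.92 CPM (log2 fold change −0.66), and Sh3gl1 and Sh3gl3 fell by 0.28 and 0.28. The call of Sh3gl3 was lost when control replicate 2 (−0.22), control replicate 3 (−0.25) or activated replicate 2 (−0.27) was left out, and with the replicate number as a block (−0.28). Under the neuron marker scaling Sh3gl3 (−0.14) and Sh3gl1 (−0.13) were not called. Arl6ip5, which encodes a protein that restrains EAAT3 transport, had a log2 fold change of 0.07 and did not pass.

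**Figure D5:**
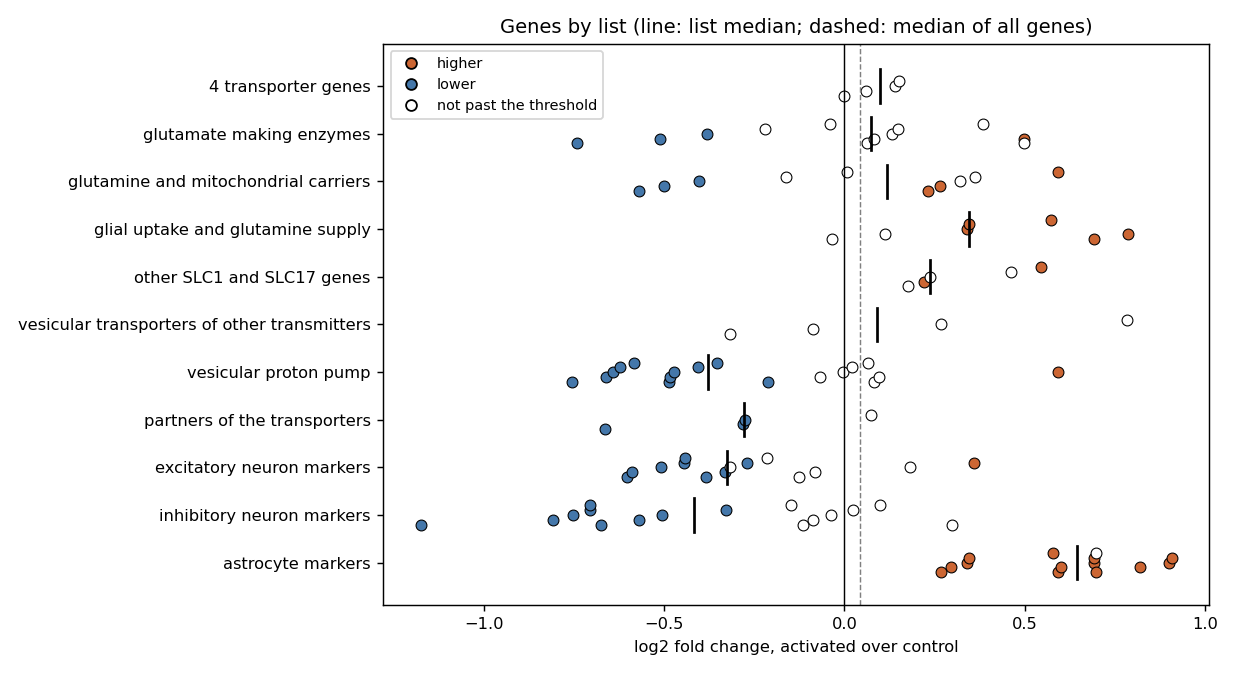
Log2 fold change of each tested gene (horizontal axis) by list (rows), with orange for higher, blue for lower and white for genes not past the threshold, black lines for list medians and a dashed line for the median of all genes. The 4 transporter genes lie at 0.15 or below, near the dashed line, the proton pump list around −0.38 and the astrocyte markers around 0.65.

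Glial genes of the glutamate and glutamine cycle were higher. Of 7 tested of 8 listed, 5 rose, none fell and 2 did not pass (median 0.35), where 16.2% of all tested genes were higher. Slc1a3 rose by 0.69, Slc38a3, the astrocyte glutamine exporter, by 0.57, and Glul, the glutamine synthetase gene, by 0.34 on the log2 scale. Slc7a11, the cystine-glutamate exchanger, rose by 0.79, but was at 0.048 without a call in unstranded counts. Astrocyte markers moved with them, 13 of 14 being higher and none lower, from a sum of 1380 to 1439 CPM in control to 1854 to 2288 CPM in activated libraries, and 3 of these markers (Slc1a2, Slc1a3 and Glul) are also in the glial list. Of the 11 markers outside it, 10 were higher, from a sum of 566 to 625 CPM in control to 861 to 1076 CPM in activated libraries. Markers of other non-neuronal cells were higher too, and none was lower. They were 4 of 6 tested for the oligodendrocyte lineage (51.3 to 54.5 CPM summed in control, 68.0 to 79.5 in activated libraries), 5 of 8 for microglia (24.9 to 37.6 and 32.1 to 65.7 CPM) and 7 of 10 for endothelial, mural and fibroblast cells (218 to 248 and 344 to 399 CPM). The microglial count was 0 without control replicate 3, without activated replicate 3 or with the replicate block, 2 without control replicate 1, with total counts or with DESeq2's Wald test, and 3 without activated replicate 2. The part of all these cells in the values above was not tested.

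Of 10 other genes of the SLC1 and SLC17 families, 5 had too few reads to be tested, among them Slc17a1 to Slc17a4, phosphate and urate transporter genes of kidney, liver and gut. The neutral amino acid exchangers Slc1a4 (0.22) and Slc1a5 (0.54) rose, where 16.2% of all tested genes were higher. The lysosomal sialic acid carrier Slc17a5 (0.18) did not pass. Slc1a4 lost its call when control replicate 3 (0.19), activated replicate 1 (0.20) or activated replicate 3 (0.16) was left out, with total counts (0.15), unstranded counts (0.19) or the block (0.22). Slc1a5 lost it when control replicate 2 (0.48), control replicate 3 (0.49), activated replicate 1 (0.46) or activated replicate 2 (0.57) was left out, with total counts (0.48), unstranded counts (0.46) or DESeq2 (0.55). Vesicular transporters of other transmitters did not pass in any of 4 genes tested of 5, where 36.8% of all tested genes passed. Slc32a1 had a log2 fold change of −0.09 and the polyamine transporter Slc18b1 0.27. Slc18b1 was called higher under the neuron marker scaling (0.41), with the filter of 1 CPM in 3 libraries (0.31) and without activated replicate 2 (0.36). With unstranded counts or without activated replicate 3, 1 gene of this list was called lower. Of 9 markers of subcortical glutamatergic, monoamine and cholinergic neurons, in which VGLUT2 or VGLUT3 is common, 6 were tested. Of these, 1 rose (Tcf7l2, 0.86), a share near the 16.2% of all tested genes that were higher, and 5 did not pass. The whole list summed to 6.99 to 7.84 CPM in control and 8.48 to 11.4 CPM in activated libraries. Tcf7l2 was the largest part of this sum, with a mean of 3.68 CPM in control and 6.73 CPM in activated libraries. The sum therefore does not show how the other markers of this list moved. Slc6a4, the serotonin transporter gene, had 31 reads over all 6 libraries.

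Reads of the 4 genes were almost free of the opposite strand, which held at most 1.92% of stranded reads for Slc17a8 and at most 0.766% for the others. Slc1a1 is the one member that overlaps an expressed gene on the other strand, 4430402I18Rik, and in unstranded counting it kept only 50.0% to 54.6% of its reads, since reads over both genes are then set aside as ambiguous. Its log2 fold change in unstranded counts was 0.03. Slc17a7 hosts Mir7055 and Slc17a6 holds Gm45072 on its own strand, which had 0 and at most 9 reads in a library.

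The genes whose log2 CPM followed each member most closely over the 6 libraries, among 9533 abundant protein-coding genes, were Ntm, B4galt7 and Hrh3 for Slc17a6 (Pearson r 0.99 each). For Slc17a7 they were Sel1l, Adcy3 and Scarb2 (r 0.99 each), for Slc1a1 Tmem64, Cul7 and Azin2 (r 0.99 each), and for Slc17a8 Pik3c2b (0.99), Zfp532 (0.97) and Dmtf1 (0.96). Being the best of so many candidates over 6 points that share scaling, these values are a description.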

How the data were processed

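The 6 libraries, 3 per group, were strand-specific with paired reads of 150 bp, per the labels' protocols. The aligner was STAR 2.5.2b with the mm10 genome, per the submitters' processing notes, which also name edgeR. The deposited files hold raw counts per gene, unstranded and per strand. The annotation release is not given in the sources used here. Reverse-strand counts were used, since the other strand held 4.05% to 4.29% of stranded gene reads. The 4 lines that name no gene (unmapped 7.49% to 9.88% of reads, multimapping 5.17% to 6.34%, ambiguous 0.736% to 0.977%, the rest outside exons) stayed out of sizes and tests.

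Annotation was GENCODE M21, matching 55144 of 55385 identifiers once versions were ignored. The symbol Pc was matched through the RefSeq table. After filterByExpr (minimum count 10, total 15), 18132 genes entered edgeR's quasi-likelihood test (version 4.0.16 under R 4.3.3) with TMM factors, group as the single term and Benjamini-Hochberg adjustment at 0.05. The SE was taken from the fold change and the F statistic, and 95% intervals from the SE and the test's degrees of freedom. Log2 CPM in correlations had a prior count of 2. In counts simulated for this comparison (17888 genes tested), 59.4% of genes altered 1.5-fold, 83.3% of those altered 2-fold and all 63 altered 4-fold were recovered. A further 14 unaltered genes were called. Only 64, 66 and 63 tested genes were altered by these folds, against 6678 genes called in the data. The shares recovered therefore need not hold for the data.

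The members and lists were chosen with earlier results of these data known. Named were the members, up to 4 genes of each list with the smallest p past the threshold (or the 2 most abundant where fewer than 2 passed), and for each member the 3 protein-coding genes of mean log2 CPM of at least 3 with the highest Pearson correlation. Of the genes in the lists, 1 counts in its list but is not reported here by name. For the marker and rapid activity lists mostly counts are given. Slc38a1, Slc38a2, Slc25a13, Slc25a18, Slc1a2, Slc17a5, Atp6v0a1, Arl6ip5, Atp6ap1, Atp6ap2, Clcn3, Slc6a4 and the markers with too few reads were named after their values were seen. Alternatives were size factors and the Wald test of DESeq2 1.42.0, total counts, scaling to neuron markers, no filter or 1 CPM in 3 libraries, unstranded counts, a replicate block, the longest transcript as length, a pseudocount of 0.5 in ratios, and leaving out each library. Plots used matplotlib 3.10.9.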

Additional observations from a re-analysis of the deposited data

How the results depend on the processing

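Across 14 alternatives the log2 fold change of Slc17a7 ranged from 0.053 to 0.28 (edgeR or DESeq2 adjusted p 0.0113 to 0.563), that of Slc17a6 from −0.0068 to 0.29 (0.0409 to 0.955), that of Slc1a1 from −0.010 to 0.20 (0.0421 to 0.944) and that of Slc17a8 from −0.12 to 0.15 (0.631 to 0.997). The neuron marker scaling called Slc17a6 (0.29), Slc17a7 (0.28) and Slc1a1 (0.20), and turned Slc17a8 to 0.15 and Slc32a1 to 0.052. Slc1a1 turned to −0.010 with total counts, and Slc17a8 to 0.039 with a filter of 1 CPM in 3 libraries. With each library left out, Slc17a7 ranged from 0.053 to 0.21, Slc17a6 from −0.0068 to 0.23, Slc1a1 from −0.0068 to 0.12 and Slc17a8 from −0.12 to 0.13. The cause of these changes was not tested. The same replicate numbers did not deviate together (correlations of −0.014, −0.18 and −0.21). With 3 libraries per group, other differences between libraries can hide a shared culture, so this cannot decide whether the numbers pair the samples. With the replicate block 5278 genes were called in place of 6678, Slc17a8 turned to 0.0070, and Slc17a7, Slc17a6 and Slc1a1 had 0.13, 0.14 and 0.056 without a call. Of genes called, 55.9% were lower with TMM, 68.7% with total counts (2089 higher, 4576 lower) and 25.2% with the neuron marker scaling (5210 higher, 1751 lower, against 2945 and 3733). The difference in each within-library ratio of 2 members moved by less than the spread between replicates under every alternative run, and the order of levels was the same with either length. Depth limits Slc17a8, with at most 57 reads per library.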
